A study of Mus musculus with 72 samples.

Results

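The daily time course of tibialis anterior (TA), a fast leg muscle, was described in mice that lack Bmal1 in their muscle fibres (mKO), with 18 of the 72 arrays of the series. These are all of the arrays whose titles name TA of mKO: 3 animals at each of ZT0, ZT4, ZT8, ZT12, ZT16 and ZT20, where ZT (Zeitgeber time) counts hours from lights on. The study profiled TA and the slow soleus (SOL) of the same animals with whole-transcript arrays, in mKO mice and in control littermates (Ctrl). The question taken up here is which transcripts of mKO TA still changed over the day, when they peaked, and how far that course differed from the one in Ctrl TA.

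The mKO mice carried floxed Bmal1 alleles together with a Cre recombinase transgene under the Mlc1f promoter, which is active in skeletal muscle fibres. The Ctrl mice were littermates without Cre, so Cre itself and the loss of Bmal1 cannot be told apart. All mice were C57BL/6 males of 5 months, kept in 12 h of light and 12 h of darkness with chow and water always present. The age and gender entries of the labels are exchanged with each other, and each was read by its content. Animals lived in a light cycle with a working clock in other organs and in the other cells of the muscle, whose Bmal1 was not targeted.

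The mammalian clock is a feedback loop. BMAL1 (the product of Arntl) pairs with CLOCK or NPAS2 on E-box sequences and drives the Per, Cry and Nr1d genes, PER and CRY proteins block that pair, and NR1D1 and NR1D2 repress Arntl and Npas2. Skeletal muscle is also paced from outside its own clock by feeding, hormones such as insulin and glucocorticoids, activity and body temperature.

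A gene was called rhythmic when a 24 h cosine improved the fit of its log2 signal in the 18 mKO arrays at a Benjamini-Hochberg adjusted p under 0.05, tested with limma over all 20239 named genes. Amplitude is the log2 distance from the mean to the fitted peak, given with its standard error, so the range from trough to peak spans 2 amplitudes. A second test took time as a factor of 6 levels and asked for any change among times. In mKO TA the cosine called 266 genes, 1.31% of those tested, and time as a factor called 151 genes, 0.746%. In Ctrl TA the same tests called 398 genes (1.97%) and 206 genes (1.02%). The order of the genotypes depended on the animals' identification series (described below with the arrays): with it as a term the cosine called 211 genes in mKO and 133 in Ctrl, and time as a factor 93 in mKO and 65 in Ctrl.

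Called genes in mKO TA had a median amplitude of 0.28, between 0.14 and 1.08, against a median of 0.065 over all genes. A range of over 2-fold from trough to peak was fitted for 31 of the 266 called genes in mKO and for 52 of the 398 called genes in Ctrl. The count in mKO leaned on single arrays: without ZT16 replicate B the cosine called 170 genes, of which 169 were among the 266. The count by time as a factor was 74 without ZT16 replicate B, 96 without ZT16 replicate C and 98 without ZT12 replicate B.

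The 18 arrays had medians between 6.704 and 6.852 and mean correlations with the arrays of their own time between 0.985 and 0.994. No 2 of them correlated above 0.996. The animals are numbered separately in the labels, so the replicates are separate mice. Their identification numbers belong to 3 series (BM3, BM2* and BM2) whose meaning the labels do not give, and these follow time in mKO TA: the arrays of ZT0, ZT4 and ZT16 are all BM3, those of ZT12 are all BM2 or BM2* and those of ZT20 are all BM2. In Ctrl TA the arrays of ZT0, ZT4 and ZT20 are all BM3 and those of ZT12 are all BM2 or BM2*. At ZT16 2 of the Ctrl arrays are BM2*. Genotype and series therefore cannot be told apart at ZT20, and only in part at ZT16, in each comparison of mKO with Ctrl below. With the series as a term, 154 of the 266 cosine calls were kept and all 266 fitted peaks stayed within 6 h of their place. In the 11 BM3 arrays alone 84 of the 266 calls were kept, and in the 7 BM2 and BM2* arrays 32 were kept, with peaks within 6 h for 266 and 260 genes. The BM3 arrays hold no ZT12 or ZT20. The BM2 and BM2* arrays hold only ZT8, ZT12 and ZT20, whose means a cosine can fit exactly. These arrays also chose the 266 genes, so the agreement of peaks was largely set in advance. Of the 73 named genes called in mKO, 45 kept the call with the series as a term. Among the Ctrl arrays, ZT0 replicate A had high signals of liver transcripts: the mean log2 signal of a list of 15 liver genes was 10.9 there, 7.75 in Ctrl ZT4 replicate C, and 5.30 to 6.21 in the mKO arrays. Without that Ctrl ZT0 array the cosine called 377 genes in Ctrl.

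The fitted peaks of mKO TA gathered in the night. Of the 266 called genes, 90 (33.8%) peaked between ZT16 and ZT20, 54 between ZT12 and ZT16 and 41 between ZT20 and ZT24, and 22, 42 and 17 peaked in the windows from ZT0, ZT4 and ZT8. In Ctrl TA the window from ZT16 to ZT20 held 50 of 398 called genes (12.6%), and the largest number, 95, peaked between ZT12 and ZT16. Between ZT8 and ZT12 the counts were 17 genes (6.39%) in mKO and 82 genes (20.6%) in Ctrl. The 3 mKO arrays of ZT16 and the 3 of ZT20 belong to different identification series, and the part of the series in the spread of peaks over the day was not tested. The median standard error of a called peak in mKO was 0.696 h.

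**Figure D1:**
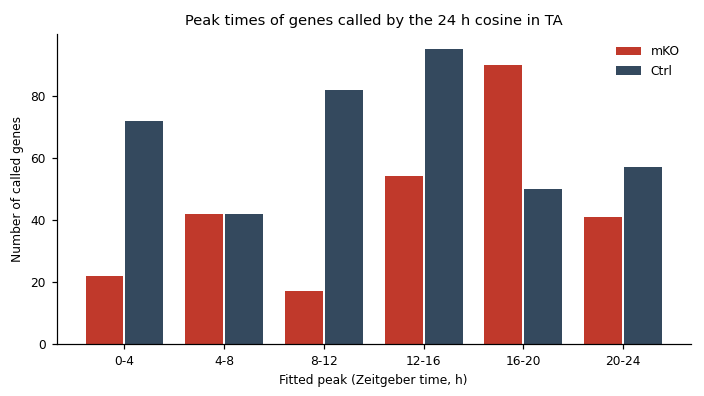
Number of genes called by the 24 h cosine in TA (vertical axis) by window of their fitted peak in Zeitgeber time (horizontal axis, h), with mKO in red at the left of each pair and Ctrl in dark blue. The window from ZT16 to ZT20 holds 90 genes in mKO and 50 in Ctrl, and the window from ZT8 to ZT12 holds 17 in mKO and 82 in Ctrl.

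**Figure D2:**
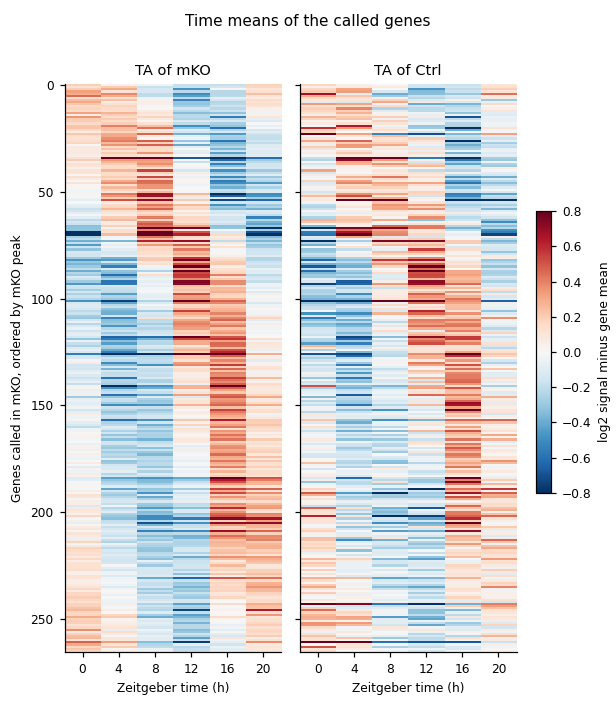
Time means of the 266 genes called in mKO TA, 1 row per gene in the order of the mKO peak, in mKO (left) and Ctrl (right). Colour gives the log2 signal minus the gene's mean over the 6 times in that genotype, cut at 0.8 in each direction. The order was set by the mKO arrays, so the diagonal in the left panel is how the rows were arranged, and the right panel shows the same genes in Ctrl.

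Of the core clock list, 18 of 20 genes were measured and 8 were called in mKO TA: Arntl, Npas2, Per1, Per2, Per3, Cry1, Nr1d1 and Nr1d2. In Ctrl TA 12 of the 18 were called, those 8 among them, beside 1.31% of all genes in mKO and 1.97% in Ctrl. The median amplitude of the 18 was 0.25 in mKO and 0.32 in Ctrl. The 8 hold activators, repressors and nuclear receptors of the loop, and Clock, Cry2, Ciart and Bhlhe41 were called in Ctrl and not in mKO. A difference of the cosine between genotypes was called for 5 of the 18 (Arntl, Per1, Cry2, Nr1d1 and Ciart), against 21 genes, 0.104%, of all those tested.

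Arntl is the targeted gene itself. In TA of mKO its log2 signals were 8.46, 8.44 and 8.08 at ZT0, 8.25, 8.20 and 8.11 at ZT4, 7.91, 7.83 and 7.93 at ZT8, 7.80, 7.40 and 7.92 at ZT12, 8.18, 8.30 and 8.39 at ZT16, and 8.44, 8.48 and 8.37 at ZT20. In TA of Ctrl they were 9.37, 9.18 and 9.12 at ZT0, 9.10, 8.89 and 8.88 at ZT4, 7.95, 7.75 and 7.19 at ZT8, 7.19, 6.84 and 7.02 at ZT12, 7.95, 7.65 and 7.87 at ZT16, and 8.48, 8.74 and 8.64 at ZT20. The mKO arrays lay below the Ctrl arrays at ZT0 and ZT4, above them at ZT12 and ZT16, and among them at ZT8 and ZT20. The mean was 8.14 in mKO and 8.21 in Ctrl: the sources used here do not place the array's probes relative to the floxed exon, and the signal of Arntl therefore does not check the deletion. Its amplitude was 0.33 ± 0.055 in mKO with a peak at ZT21.8 ± 0.632 h (adjusted p = 0.00676) and 1.09 ± 0.072 in Ctrl with a peak at ZT0.147. The cosine difference was called (amplitude difference -0.76 ± 0.091, adjusted p = 1.7e-05). With the identification series as a term the rhythm of Arntl in mKO was not called (adjusted p = 0.099).

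Npas2 encodes the CLOCK-like partner of BMAL1. Its signals in mKO TA were 9.08, 8.88 and 8.32 at ZT0, 8.76, 8.55 and 8.53 at ZT4, 7.83, 7.96 and 8.02 at ZT8, 7.48, 7.37 and 7.70 at ZT12, 8.18, 8.42 and 7.99 at ZT16, and 8.40, 8.70 and 8.85 at ZT20. Ctrl TA held 7.77, 7.92 and 7.77 at ZT0, 7.59, 7.80 and 7.69 at ZT4, 6.33, 5.89 and 6.04 at ZT8, 6.12, 5.85 and 6.06 at ZT12, 5.97, 5.76 and 6.30 at ZT16, and 6.29, 6.59 and 6.65 at ZT20. Every mKO array lay above every Ctrl array of its time. In mKO the signals were lowest at ZT12 and those of ZT20 lay within the range of ZT0, whereas in Ctrl all arrays from ZT8 to ZT20 lay below those of ZT0 and ZT4. The amplitude was 0.61 ± 0.072 in mKO (peak ZT23.5 ± 0.453 h, adjusted p = 0.000405) and 1.02 ± 0.10 in Ctrl (peak ZT1.39). The cosine difference was not called (adjusted p = 0.277), but the difference of the course with time as a factor was (adjusted p = 0.00344); that test called 18 genes, 0.0889% of all genes, 14 of them shared with the cosine difference. Clock was also higher in every mKO array than in the Ctrl arrays of its time, with means of 9.74 in mKO and 9.01 in Ctrl, and its amplitude of 0.14 ± 0.048 in mKO was not called (adjusted p = 0.352).

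The Per genes encode the repressors that close the loop, and Per1 and Per2 also respond to glucocorticoids and other signals from outside the cell. The promoters of Per1, Cry1 and Per3 are shown because they carry the elements through which the loop is known to act, in genes that cycled in both genotypes. Each is the 250 bases before the first listed transcription start in RefSeq, assembly GRCm38.p6, with capitals marking matches to an E-box (CACGTG) or a D-box (TTATGTAA or TTACGTAA), the sequence bound by DBP, HLF, TEF and NFIL3; in Cry1 the capitals further upstream mark a forkhead site (GTAAACA). They lie at chr11:69098699-69098948, plus strand, at chr10:85185055-85185304, minus strand and at chr4:151044666-151044915, minus strand.
Per1: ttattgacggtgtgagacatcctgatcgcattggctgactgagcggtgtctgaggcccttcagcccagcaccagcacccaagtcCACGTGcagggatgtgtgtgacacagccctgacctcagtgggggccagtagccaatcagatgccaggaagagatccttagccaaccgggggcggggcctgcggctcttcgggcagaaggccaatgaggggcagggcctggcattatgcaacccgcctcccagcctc
Cry1: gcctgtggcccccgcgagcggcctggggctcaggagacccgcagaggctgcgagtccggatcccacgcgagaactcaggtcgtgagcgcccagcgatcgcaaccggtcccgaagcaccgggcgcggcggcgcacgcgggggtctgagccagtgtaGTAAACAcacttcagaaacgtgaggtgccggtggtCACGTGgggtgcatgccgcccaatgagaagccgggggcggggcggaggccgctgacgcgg
Per3: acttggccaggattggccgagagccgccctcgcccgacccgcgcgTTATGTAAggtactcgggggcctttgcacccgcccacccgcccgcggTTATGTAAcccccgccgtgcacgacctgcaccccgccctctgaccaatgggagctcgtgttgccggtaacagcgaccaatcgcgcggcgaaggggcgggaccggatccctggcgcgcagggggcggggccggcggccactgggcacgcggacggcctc
The E-box of Per1 begins 166 bases before the start and that of Cry1 60 bases before it, and the 2 D-boxes of Per3 begin 205 and 158 bases before it. Searched on both strands in the same 250 bases of the 15651 tested genes with a RefSeq promoter entry, the E-box was held by 7.03% of promoters, the D-box by 0.888% and the forkhead site by 2.73%. A match says only that these letters are present in the window.

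Per1 signals in mKO TA were 7.49, 7.16 and 6.85 at ZT0, 7.04, 6.84 and 6.83 at ZT4, 7.34, 7.76 and 7.11 at ZT8, 8.51, 8.54 and 8.86 at ZT12, 8.07, 8.10 and 8.21 at ZT16, and 7.81, 7.68 and 7.57 at ZT20. In Ctrl TA the values were 7.27, 7.33 and 7.03 at ZT0, 7.48, 7.57 and 7.49 at ZT4, 9.05, 9.26 and 9.28 at ZT8, 9.47, 9.86 and 9.68 at ZT12, 8.59, 8.85 and 8.65 at ZT16, and 7.94, 7.75 and 7.36 at ZT20. The mKO arrays lay below the Ctrl arrays from ZT4 to ZT16 and overlapped with them at ZT0 and ZT20. At ZT8 the Ctrl arrays stood well above their own values of ZT0 and ZT4, while the mKO arrays still overlapped with their own values of ZT0. The amplitude of Per1 was 0.78 ± 0.087 in mKO (peak ZT14.3 ± 0.427 h, adjusted p = 0.000261) and 1.27 ± 0.074 in Ctrl (peak ZT11.7). The cosine difference was called (adjusted p = 0.00101), with a peak 2.56 ± 0.481 h later in mKO.

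Per2 had the second smallest adjusted p of the clock list in mKO. Its signals were 6.63, 6.71 and 6.76 at ZT0, 6.69, 6.57 and 6.51 at ZT4, 7.12, 7.29 and 7.002 at ZT8, 7.85, 7.87 and 7.94 at ZT12, 7.54, 7.54 and 7.53 at ZT16, and 7.19, 7.09 and 7.06 at ZT20. The Ctrl values were 6.64, 6.96 and 6.89 at ZT0, 6.91, 6.93 and 6.98 at ZT4, 7.80, 8.04 and 7.93 at ZT8, 8.29, 8.31 and 8.21 at ZT12, 8.14, 8.01 and 7.94 at ZT16, and 7.48, 7.42 and 7.48 at ZT20. Per2 was lower in mKO than in Ctrl at each time but ZT0, where the arrays overlapped, and in both genotypes it was highest at ZT12. Amplitudes were 0.62 ± 0.045 in mKO (peak ZT13.7 ± 0.281 h, adjusted p = 8.72e-07) and 0.76 ± 0.044 in Ctrl (peak ZT12.9), and the cosine difference was not called (adjusted p = 0.999; amplitude difference -0.14 ± 0.063). Per3 lay below Ctrl at all 6 times, with means of 7.10 in mKO and 8.12 in Ctrl, and its amplitude was 0.59 ± 0.067 in mKO (peak ZT12.3 ± 0.429 h, adjusted p = 0.000261) and 0.66 ± 0.052 in Ctrl (peak ZT11.2). The difference of the Per3 cosine was not called (adjusted p = 0.999).

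Cry1, the other branch of the repressor complex, had an amplitude of 0.28 ± 0.042 in mKO (peak ZT19.7 ± 0.576 h, adjusted p = 0.00311) and 0.21 ± 0.043 in Ctrl (peak ZT18). Its time means in mKO were 7.80 at ZT0, 7.52 at ZT4, 7.32 at ZT8, 7.51 at ZT12, 7.87 at ZT16 and 7.83 at ZT20. In Ctrl they were 7.58 at ZT0, 7.13 at ZT4, 7.36 at ZT8, 7.47 at ZT12, 7.60 at ZT16 and 7.62 at ZT20. The mKO arrays lay above the Ctrl arrays at ZT0, ZT4, ZT16 and ZT20. Its paralogue Cry2 had an amplitude of 0.039 ± 0.037 in mKO (adjusted p = 0.914) and 0.38 ± 0.037 in Ctrl, where it peaked at ZT12.1, and the difference was called (adjusted p = 0.000346). Ciart, a further repressor of BMAL1 and CLOCK, had time means of 5.91 at ZT0, 5.82 at ZT4, 6.33 at ZT8, 6.39 at ZT12, 5.76 at ZT16 and 6.03 at ZT20 in mKO. In Ctrl its means were 5.85 at ZT0, 6.38 at ZT4, 8.46 at ZT8, 8.06 at ZT12, 6.86 at ZT16 and 6.05 at ZT20. Its amplitude was 0.22 ± 0.098 in mKO (adjusted p = 0.572) and 1.34 ± 0.12 in Ctrl, the largest difference in the clock list (-1.12 ± 0.15, adjusted p = 0.00101).

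Nr1d1 and Nr1d2 encode the nuclear receptors that repress Arntl and Npas2. Nr1d1 signals in mKO TA were 9.56, 9.57 and 9.46 at ZT0, 10.11, 10.13 and 10.09 at ZT4, 10.25, 10.46 and 10.24 at ZT8, 9.91, 9.95 and 9.59 at ZT12, 8.86, 8.89 and 8.87 at ZT16, and 8.79, 8.94 and 9.19 at ZT20. The Ctrl arrays gave 10.68, 10.68 and 10.69 at ZT0, 11.83, 11.82 and 11.60 at ZT4, 11.59, 11.52 and 11.16 at ZT8, 10.64, 10.59 and 10.59 at ZT12, 9.59, 9.78 and 9.62 at ZT16, and 9.41, 9.44 and 9.52 at ZT20. The mKO arrays were below the Ctrl arrays at every time, highest at ZT8 and lowest at ZT16 and ZT20. Nr1d1 had the smallest adjusted p of the clock list in mKO (1.62e-07), with an amplitude of 0.75 ± 0.049 and a peak at ZT6.57 ± 0.246 h. In Ctrl the amplitude was 1.17 ± 0.053 with a peak at ZT5.86, and the cosine difference was called (amplitude difference -0.42 ± 0.072, adjusted p = 0.00431). Nr1d2 was also below Ctrl at every time, with means of 9.58 in mKO and 11.11 in Ctrl. Its amplitude was 0.46 ± 0.055 in mKO (peak ZT10.6 ± 0.458 h, adjusted p = 0.000444) and 0.29 ± 0.043 in Ctrl (peak ZT10.5), and the difference was not called (adjusted p = 0.999). The differences of mean level between genotypes were not tested here.

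**Figure D3:**
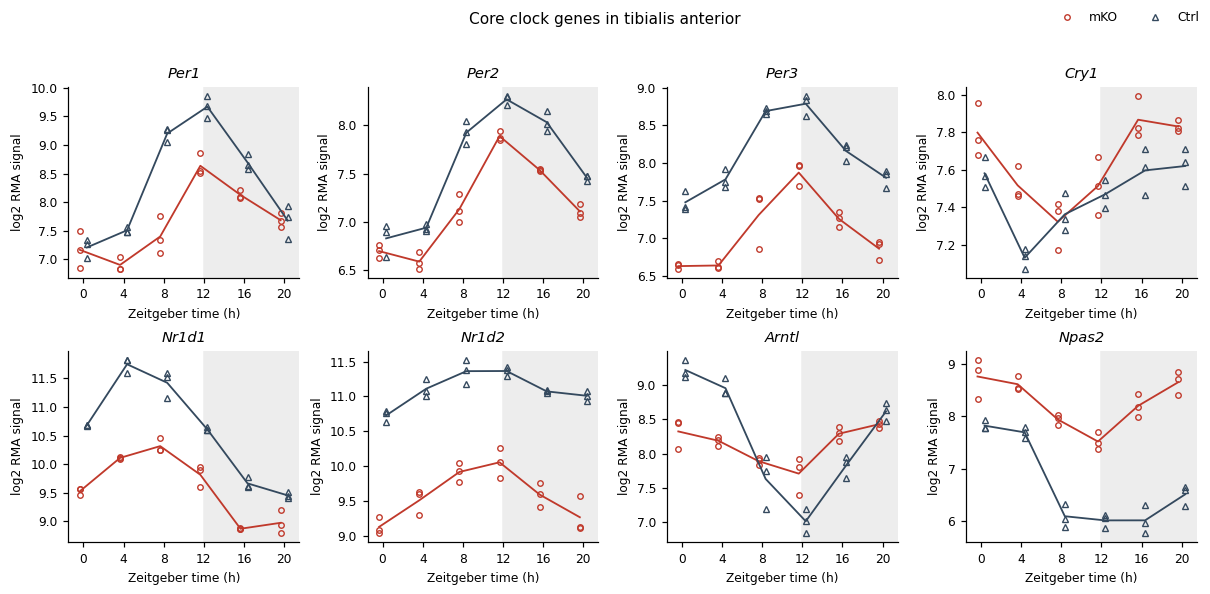
Log2 RMA signal (vertical axes) of 8 core clock genes over Zeitgeber time (horizontal axes, h) in TA of mKO (red circles) and Ctrl (dark triangles), 1 symbol per array, with lines through the time means, symbols of the 2 genotypes set slightly apart and the dark phase shaded. Npas2 lies above Ctrl and Nr1d1, Nr1d2 and Per3 lie below Ctrl at all 6 times, and each of the 8 genes was called in mKO.

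The remaining core clock members had no called rhythm in mKO TA. Bhlhe40 and Bhlhe41, which encode repressors that bind E-boxes, had amplitudes of 0.30 ± 0.09 (adjusted p = 0.258) and 0.17 ± 0.058 (adjusted p = 0.372). Bhlhe40 averaged 8.26 in mKO and 9.37 in Ctrl, with no overlap at any time. Rora, an activator of Arntl, averaged 10.01 in mKO and 10.49 in Ctrl, again with the mKO arrays below the Ctrl arrays at every time, and its amplitude was 0.096 ± 0.037 in mKO. Rorb, Csnk1d, Csnk1e and Fbxl21 had amplitudes between 0.0077 and 0.083 in mKO. These are the kinases of PER, an F-box protein of CRY and a receptor related to RORA.

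The clock output list held 14 measured genes, and whether the loop drives each of them in this muscle was not tested. In mKO 6 were called (Dbp, Hlf, Nfil3, Wee1, Usp2 and Tspan4), and in Ctrl 10, all 6 among them. The median amplitude of the list was 0.15 in mKO and 0.30 in Ctrl. Called shares over all genes were 1.31% in mKO and 1.97% in Ctrl. A cosine difference was called for Coq10b (0.11 in mKO and 0.45 in Ctrl, adjusted p = 0.00431) and for no other gene of the list.

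Dbp encodes a transcription factor that acts on D-boxes and is a direct target of BMAL1 and CLOCK. Its signals in mKO TA were 7.54, 7.32 and 7.39 at ZT0, 7.39, 7.30 and 7.60 at ZT4, 8.62, 8.73 and 7.89 at ZT8, 8.44, 8.69 and 8.36 at ZT12, 7.59, 7.75 and 7.45 at ZT16, and 7.45, 7.49 and 7.36 at ZT20. Ctrl TA read 8.12, 8.61 and 8.17 at ZT0, 9.15, 9.09 and 9.04 at ZT4, 10.31, 9.98 and 10.02 at ZT8, 10.08, 10.04 and 10.13 at ZT12, 9.42, 9.70 and 9.56 at ZT16, and 9.04, 8.995 and 8.96 at ZT20. All mKO arrays lay below the Ctrl arrays of their time, and those of ZT8 and ZT12 stood above those of all other times. The amplitude was 0.60 ± 0.09 in mKO (peak ZT10.5 ± 0.571 h, adjusted p = 0.00281) and 0.88 ± 0.066 in Ctrl (peak ZT11.2), and the difference was not called (adjusted p = 0.999). Hlf, a relative of Dbp, had an amplitude of 0.45 ± 0.065 in mKO (peak ZT12.2) and 0.32 ± 0.054 in Ctrl (peak ZT12.4), again below Ctrl at every time. Tef, the other member of this family, was not called in mKO (0.093 ± 0.04, adjusted p = 0.546).

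Nfil3, the repressor that competes for D-boxes, peaked on the opposite side of the day. Its time means were 8.62 at ZT0, 8.39 at ZT4, 8.15 at ZT8, 8.44 at ZT12, 9.15 at ZT16 and 9.002 at ZT20 in mKO. In Ctrl they were 8.41 at ZT0, 7.47 at ZT4, 7.01 at ZT8, 7.63 at ZT12, 8.59 at ZT16 and 8.40 at ZT20. The amplitude was 0.47 ± 0.066 in mKO (peak ZT18.6 ± 0.533 h, adjusted p = 0.00141) and 0.79 ± 0.087 in Ctrl (peak ZT19.5), and the difference was not called (adjusted p = 0.999). Tspan4, a tetraspanin, had almost the same course in both genotypes: 0.45 ± 0.04 in mKO (peak ZT12.8 ± 0.343 h, adjusted p = 1.96e-05) and 0.45 ± 0.045 in Ctrl (peak ZT11.8), with an amplitude difference of -0.0023 ± 0.06. Usp2, a deubiquitinase, had 0.37 ± 0.042 in mKO (peak ZT14.9 ± 0.433 h, adjusted p = 0.000269) and 0.54 ± 0.039 in Ctrl (peak ZT13). Wee1, a kinase of the cell cycle, had 0.40 ± 0.066 in mKO (peak ZT14.1 ± 0.621 h, adjusted p = 0.00615) and 0.39 ± 0.066 in Ctrl. Usp2 and Wee1 lay below Ctrl at every time. Klf9, Klf15, Nampt, Tsc22d3, Leo1 and Tspo2 were not called in mKO, with amplitudes between 0.04 and 0.15.

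Set gene by gene against Ctrl, 128 genes were called in both genotypes, 48.1% of the mKO calls and 32.2% of the Ctrl calls. In these 128 the amplitude was higher in mKO for 54 and lower for 74, with medians of 0.34 in mKO and 0.36 in Ctrl. The median peak shift was 0.165 h, and 109 of the 128 peaks lay within 2 h of each other. Of the 138 genes called in mKO and not in Ctrl, none had a called cosine difference (over all 20239 genes, 680 had a cosine difference at an unadjusted p under 0.05). Of the 270 genes called in Ctrl and not in mKO, 17 had a called difference. All 21 called differences had the lower amplitude in mKO, and 4 of those 21 genes were still called in mKO: Arntl, Per1, Nr1d1 and Pim1. Without the Ctrl ZT0 array with liver transcripts, 18 of the 21 differences were called, and those of Ddit4l, Stk35 and Wsb1 were not.

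**Figure D4:**
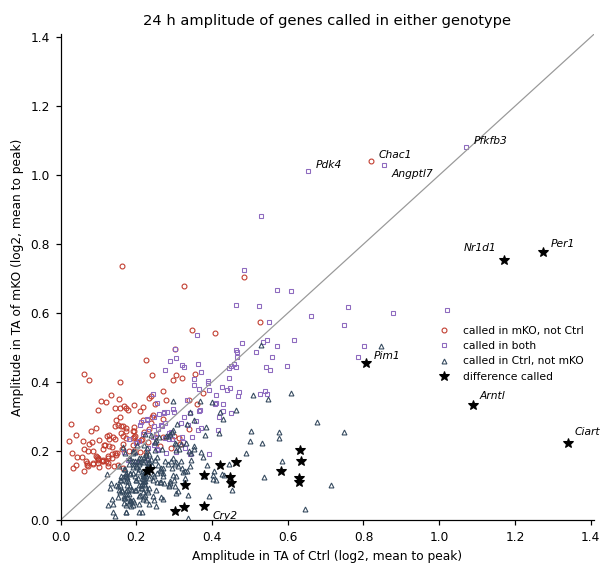
Fitted 24 h amplitude (log2, mean to peak) in TA of mKO (vertical axis) against TA of Ctrl (horizontal axis) for genes called in either genotype, with the line of equal amplitude. Red circles are called in mKO and not Ctrl, purple squares in both, dark triangles in Ctrl and not mKO, and black stars mark the 21 genes with a called cosine difference, which all lie below the line.

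Pim1, a kinase induced by cytokine and growth factor signals, was the 1 gene called in both genotypes whose peaks lay over 4 h apart. Its signals in mKO TA were 9.29, 9.15 and 8.89 at ZT0, 9.51, 9.27 and 8.81 at ZT4, 9.29, 9.16 and 9.64 at ZT8, 8.54, 8.64 and 8.37 at ZT12, 8.25, 8.59 and 8.48 at ZT16, and 8.61, 8.57 and 9.03 at ZT20. Ctrl arrays gave 9.43, 9.33 and 9.18 at ZT0, 8.90, 8.66 and 8.55 at ZT4, 7.98, 7.90 and 7.68 at ZT8, 7.66, 7.64 and 7.70 at ZT12, 7.96, 8.10 and 7.98 at ZT16, and 8.68, 8.89 and 8.54 at ZT20. The mKO arrays were above the Ctrl arrays at ZT8, ZT12 and ZT16 and overlapped with them at the other times. The peak was at ZT4.08 ± 0.655 h in mKO and at ZT23.8 in Ctrl, a shift of 4.3 ± 0.698 h, with amplitudes of 0.46 ± 0.078 in mKO and 0.81 ± 0.051 in Ctrl (adjusted p of the difference = 0.00029). Genes whose amplitude was higher in mKO had no called difference. The smallest adjusted p among them was that of Trim63 (0.113), described with the proteolysis genes.

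Genes of fuel use were among those of largest amplitude in mKO TA. Of 28 measured genes that answer to fasting and to FoxO factors, 6 were called in mKO and 7 in Ctrl. Of 20 genes of glycolysis and pyruvate use 2 were called in mKO and 4 in Ctrl. The shares over all genes were 1.31% in mKO and 1.97% in Ctrl. The members called in mKO included Pdk4, Ucp3, Fbxo32 and Trim63 of the fasting list and Pfkfb3 and Pdk4 of the glycolysis list. All of these peaked in the light phase, between ZT5.01 and ZT9.63, when mice eat little. The median amplitude of the fasting list was 0.11 in mKO and in Ctrl, and that of the glycolysis list 0.048 in mKO and 0.059 in Ctrl, beside 0.065 over all genes.

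Pfkfb3 encodes the enzyme that makes fructose 2,6-bisphosphate, the activator of glycolysis. In mKO TA its signals were 10.38, 10.51 and 9.71 at ZT0, 11.21, 11.34 and 10.47 at ZT4, 10.90, 11.03 and 11.80 at ZT8, 9.70, 9.29 and 9.24 at ZT12, 9.12, 9.20 and 9.15 at ZT16, and 9.36, 8.81 and 10.24 at ZT20. Ctrl TA gave 10.57, 10.004 and 9.50 at ZT0, 11.55, 11.39 and 11.34 at ZT4, 11.47, 11.06 and 10.98 at ZT8, 9.30, 10.60 and 9.04 at ZT12, 9.29, 8.57 and 9.43 at ZT16, and 9.15, 10.40 and 10.30 at ZT20. The time means were highest at ZT4 and ZT8 and lowest at ZT16 in both genotypes, whose arrays overlapped at every time but ZT4, where mKO was lower. The amplitude was 1.08 ± 0.14 in mKO, a 4.48-fold range from trough to peak (peak ZT5.01 ± 0.509 h, adjusted p = 0.00113), and 1.07 ± 0.18 in Ctrl (peak ZT4.87). The amplitude difference was 0.012 ± 0.23 (adjusted p of the cosine difference = 0.999).

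Pdk4 encodes the kinase that shuts off pyruvate dehydrogenase when fat is burned. Signals in mKO TA were 11.81, 11.65 and 10.81 at ZT0, 13.09, 12.46 and 12.22 at ZT4, 13.01, 13.14 and 13.61 at ZT8, 12.84, 13.25 and 12.80 at ZT12, 13.02, 12.39 and 12.09 at ZT16, and 11.12, 11.15 and 11.62 at ZT20. The Ctrl values were 11.71, 11.19 and 11.61 at ZT0, 12.86, 13.12 and 12.80 at ZT4, 12.44, 12.28 and 12.72 at ZT8, 11.98, 12.59 and 12.20 at ZT12, 11.93, 11.78 and 12.36 at ZT16, and 11.39, 11.39 and 11.28 at ZT20. The mKO arrays were highest at ZT8 and lay above the Ctrl arrays at ZT8 and ZT12, and the Ctrl arrays were highest at ZT4. Its amplitude was 1.01 ± 0.12 in mKO (peak ZT9.62 ± 0.443 h, adjusted p = 0.000324) and 0.65 ± 0.11 in Ctrl (peak ZT7.74), without a called difference (adjusted p = 0.999). Ucp3, a mitochondrial carrier induced when fatty acids are used, was likewise highest at ZT8 in mKO and at ZT4 in Ctrl. Its time means were 8.78 at ZT0, 9.72 at ZT4, 10.60 at ZT8, 10.10 at ZT12, 9.47 at ZT16 and 8.91 at ZT20 in mKO. In Ctrl they were 9.23 at ZT0, 10.44 at ZT4, 10.16 at ZT8, 9.91 at ZT12, 9.78 at ZT16 and 9.24 at ZT20. The amplitude was 0.88 ± 0.084 in mKO (peak ZT9.37 ± 0.366 h, adjusted p = 3.58e-05) and 0.53 ± 0.092 in Ctrl (peak ZT8.04), and the difference was not called (adjusted p = 0.999). Txnip, an inhibitor of glucose uptake and of thioredoxin, had an amplitude of 0.39 ± 0.07 in mKO (peak ZT4.58 ± 0.681 h, adjusted p = 0.0129) and 0.35 ± 0.052 in Ctrl (peak ZT5.57). It was the 1 called gene of 27 on the list of NAD and redox metabolism in mKO, against 4 in Ctrl. The shares of all genes called were 1.31% in mKO and 1.97% in Ctrl.

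The called genes of protein breakdown peaked in the light phase too. Fbxo32 (atrogin-1) and Trim63 (MuRF1) encode the muscle ubiquitin ligases that rise in atrophy. Fbxo32 signals in mKO TA were 10.93, 10.85 and 10.59 at ZT0, 11.22, 11.17 and 10.98 at ZT4, 11.21, 11.25 and 11.91 at ZT8, 10.95, 10.76 and 10.94 at ZT12, 9.67, 10.54 and 10.16 at ZT16, and 10.10, 10.10 and 10.70 at ZT20. In Ctrl TA they were 11.39, 10.96 and 10.93 at ZT0, 11.51, 11.24 and 11.33 at ZT4, 10.78, 11.23 and 10.76 at ZT8, 10.72, 10.82 and 10.50 at ZT12, 10.36, 10.28 and 10.33 at ZT16, and 10.54, 10.92 and 10.47 at ZT20. The mKO arrays lay below the Ctrl arrays at ZT4 and overlapped with them at the other times. Amplitudes were 0.62 ± 0.087 in mKO (peak ZT6.34 ± 0.532 h, adjusted p = 0.00141) and 0.46 ± 0.062 in Ctrl (peak ZT3.68), and the difference was not called (adjusted p = 0.739). Trim63 time means were 9.90 at ZT0, 10.13 at ZT4, 10.58 at ZT8, 10.31 at ZT12, 10.22 at ZT16 and 9.80 at ZT20 in mKO. The Ctrl course was 9.91 at ZT0, 10.32 at ZT4, 9.91 at ZT8, 9.87 at ZT12, 9.999 at ZT16 and 10.08 at ZT20. Its amplitude was 0.34 ± 0.06 in mKO (peak ZT9.63 ± 0.668 h, adjusted p = 0.0111) and 0.11 ± 0.057 in Ctrl (adjusted p = 0.713). The Trim63 cosine difference was not called (adjusted p = 0.113), while the difference with time as a factor was, close to the threshold (adjusted p = 0.0491). Over all genes that test called 12 to 18 differences without 1 array and 10 with the identification series as a term. Whether the calls of Trim63, Npas2 and Fnip1 were kept there was not checked. The mKO arrays of Trim63 lay above Ctrl at ZT8 and ZT12 and below at ZT20. With the identification series as a term the rhythm of Trim63 in mKO was not called (adjusted p = 0.0595).

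The list of atrophy, autophagy and growth control held 24 measured genes, of which 4 were called in mKO (Fbxo32, Trim63, Ulk1 and Myod1) and 3 in Ctrl. Beside this list and the stress response list below, 1.31% of all genes were called in mKO and 1.97% in Ctrl. Ulk1, the kinase that starts autophagy, had an amplitude of 0.16 ± 0.034 in mKO (peak ZT11.5, adjusted p = 0.0404, lost in 13 of 18 fits that left out 1 array; 0.135 with the series as a term). Klhl38, a kelch protein found with Fbxo32 among genes of muscle wasting, had an amplitude of 0.73 ± 0.11 in mKO (peak ZT6.31 ± 0.566 h, adjusted p = 0.00259) and 0.48 ± 0.07 in Ctrl (peak ZT5.87), with overlap between the genotypes at every time. Chac1, a glutathione-degrading enzyme of the amino acid stress response, had time means of 8.30 at ZT0, 8.64 at ZT4, 9.72 at ZT8, 9.37 at ZT12, 8.30 at ZT16 and 7.37 at ZT20 in mKO. Means in Ctrl were 8.36 at ZT0, 10.45 at ZT4, 10.42 at ZT8, 10.11 at ZT12, 9.31 at ZT16 and 9.46 at ZT20. Its amplitude was 1.04 ± 0.16 in mKO (peak ZT8.79 ± 0.575 h, adjusted p = 0.00302) and 0.82 ± 0.21 in Ctrl (adjusted p = 0.11). The cosine difference of Chac1 was not called (adjusted p = 0.999), and the mKO arrays lay below Ctrl at ZT4, ZT8, ZT16 and ZT20. Its rhythm in mKO was not called without the ZT20 arrays, which are all BM2, nor in the BM3 arrays alone. Of 24 measured genes on the amino acid and integrated stress response list, 3 were called in mKO and 3 in Ctrl, in mKO Chac1, Atf4 (0.17 ± 0.035, adjusted p = 0.0444) and Ddit4 (0.52 ± 0.11, adjusted p = 0.0481); the calls of Atf4 and Ddit4 were each lost in 15 of 18 fits that left out 1 array and with the series as a term (0.136 and 0.263).

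**Figure D5:**
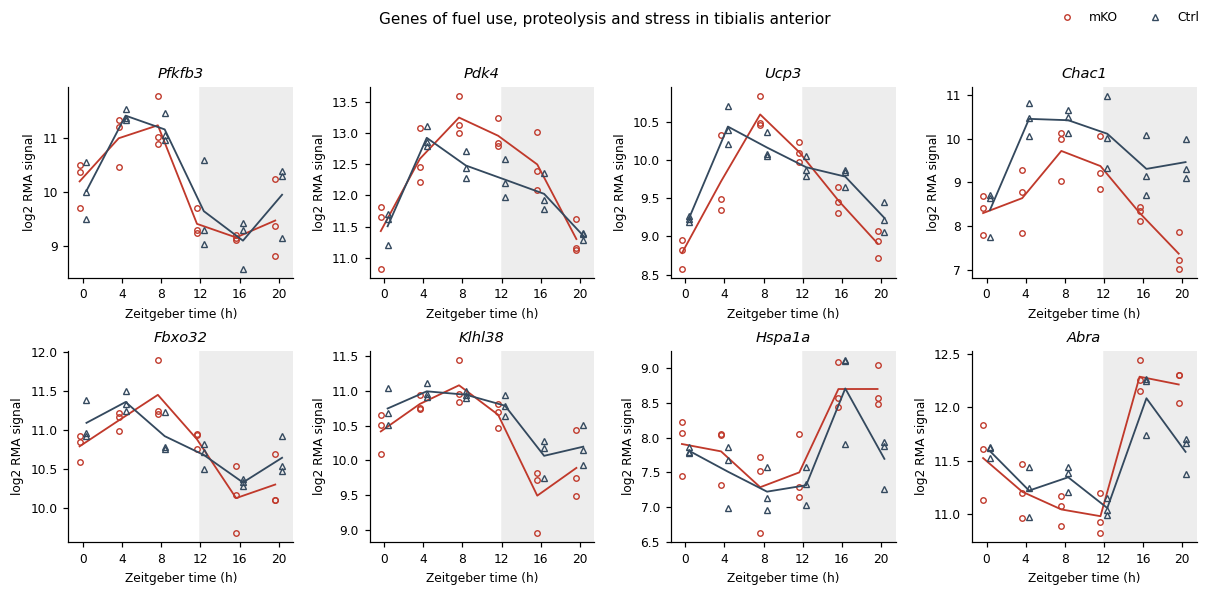
Log2 RMA signal (vertical axes) of 8 genes of fuel use, proteolysis and stress over Zeitgeber time (horizontal axes, h) in TA of mKO (red circles) and Ctrl (dark triangles), 1 symbol per array, with lines through the time means and the dark phase shaded. Pfkfb3, Pdk4, Ucp3, Chac1, Fbxo32 and Klhl38 are highest at ZT8 in mKO, and Hspa1a and Abra are highest at ZT16 and ZT20.

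The called genes of insulin signalling and glycogen peaked at night, when mice do most of their eating. Of 25 measured genes of insulin and IGF signalling 2 were called in mKO and 2 in Ctrl, Irs1 and Pik3r1 in both. Of 21 genes of glucose uptake and glycogen 2 were called in mKO (Ppp1r3c and Tbc1d1) and 1 in Ctrl. Shares over all genes were 1.31% in mKO and 1.97% in Ctrl. The promoters of Irs1 (chr1:82291440-82291689, minus strand), Ppp1r3c (chr19:36736605-36736854, minus strand) and Hspa1a (chr17:34972157-34972406, minus strand) are given as those of genes that peaked within the same hours of the night, from the same RefSeq table, with capitals marking an E-box in Irs1 and Ppp1r3c and a heat shock element core (GAANNTTC) in Hspa1a.
Irs1: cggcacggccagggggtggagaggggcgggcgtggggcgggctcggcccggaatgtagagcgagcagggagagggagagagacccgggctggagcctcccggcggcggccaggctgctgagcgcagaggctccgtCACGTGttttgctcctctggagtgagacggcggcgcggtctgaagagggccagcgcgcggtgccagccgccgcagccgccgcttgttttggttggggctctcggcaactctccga
Ppp1r3c: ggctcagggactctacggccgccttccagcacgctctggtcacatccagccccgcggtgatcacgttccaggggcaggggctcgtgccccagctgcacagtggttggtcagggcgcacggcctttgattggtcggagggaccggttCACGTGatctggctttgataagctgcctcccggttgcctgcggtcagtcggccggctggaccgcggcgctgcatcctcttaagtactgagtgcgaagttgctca
Hspa1a: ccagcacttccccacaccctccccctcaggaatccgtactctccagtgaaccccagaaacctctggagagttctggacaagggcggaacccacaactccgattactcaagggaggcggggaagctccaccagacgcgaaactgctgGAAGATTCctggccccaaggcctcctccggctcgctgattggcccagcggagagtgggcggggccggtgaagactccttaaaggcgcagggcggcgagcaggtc
The E-boxes of Irs1 and Ppp1r3c begin 115 and 104 bases before the start, and the heat shock element core of Hspa1a, the sequence that HSF1 binds, begins 104 bases before it. The heat shock element core was found in 5.87% of promoters, on either strand.

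Irs1 encodes the main docking protein of the insulin receptor in muscle. Its signals in mKO TA were 9.59, 9.77 and 9.74 at ZT0, 9.32, 9.18 and 9.39 at ZT4, 9.33, 9.33 and 9.55 at ZT8, 9.46, 9.55 and 9.28 at ZT12, 10.28, 10.27 and 10.23 at ZT16, and 10.31, 10.20 and 10.02 at ZT20. Ctrl TA held 9.75, 9.88 and 9.70 at ZT0, 9.54, 9.52 and 9.68 at ZT4, 9.23, 9.37 and 9.19 at ZT8, 8.71, 8.67 and 8.87 at ZT12, 10.27, 9.46 and 10.34 at ZT16, and 9.98, 10.35 and 10.17 at ZT20. In mKO the arrays of ZT16 and ZT20 lay above those of all other times, and at ZT12 they lay above Ctrl, where Irs1 was lowest. The amplitude was 0.50 ± 0.056 in mKO (peak ZT18.4 ± 0.421 h, adjusted p = 0.000252) and 0.57 ± 0.10 in Ctrl (peak ZT21.1), with no called difference (adjusted p = 0.999). Pik3r1, the regulatory subunit of phosphoinositide 3-kinase, had 0.35 ± 0.053 in mKO (peak ZT17.7 ± 0.579 h, adjusted p = 0.0032) and 0.33 ± 0.043 in Ctrl (peak ZT18.6). Ppp1r3c, which brings protein phosphatase 1 to glycogen, had time means of 11.67 at ZT0, 11.19 at ZT4, 10.997 at ZT8, 11.27 at ZT12, 11.998 at ZT16 and 11.86 at ZT20 in mKO. Ctrl had means of 11.76 at ZT0, 11.25 at ZT4, 10.22 at ZT8, 10.40 at ZT12, 11.61 at ZT16 and 11.60 at ZT20. Its amplitude was 0.50 ± 0.07 in mKO (peak ZT19.1 ± 0.53 h, adjusted p = 0.00141) and 0.80 ± 0.093 in Ctrl (peak ZT21.4), and the mKO arrays lay above Ctrl at ZT8 and ZT12. Tbc1d1, a regulator of glucose transporter traffic, had 0.24 ± 0.045 in mKO (peak ZT21.9 ± 0.717 h, adjusted p = 0.0204) and lay below Ctrl at every time. Its call was lost in 2 of 18 fits that left out 1 array (highest adjusted p 0.0544, without ZT20 replicate B). With the series as a term the adjusted p of Tbc1d1 was 0.242.

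The called heat shock genes peaked at night as well. Of 21 measured heat shock genes 3 were called in mKO (Hspa1a, Dnajb4 and Dnajb5) and 1 in Ctrl, Dnajb4. Among all genes 1.31% were called in mKO and 1.97% in Ctrl. Hspa1a, the inducible HSP70, had signals in mKO TA of 7.44, 8.22 and 8.06 at ZT0, 7.31, 8.04 and 8.06 at ZT4, 6.62, 7.72 and 7.52 at ZT8, 7.29, 8.06 and 7.15 at ZT12, 8.44, 9.09 and 8.58 at ZT16, and 8.57, 9.05 and 8.48 at ZT20. The Ctrl values were 7.78, 7.79 and 7.87 at ZT0, 6.98, 7.87 and 7.68 at ZT4, 6.96, 7.14 and 7.57 at ZT8, 7.57, 7.03 and 7.34 at ZT12, 9.10, 7.90 and 9.12 at ZT16, and 7.26, 7.88 and 7.94 at ZT20. Replicate A was the lowest of its time at ZT0, ZT4, ZT8 and ZT16 in mKO, and the mKO arrays lay above Ctrl at ZT20. The amplitude was 0.70 ± 0.14 in mKO (peak ZT19.2 ± 0.736 h, adjusted p = 0.0239), and the call was lost without ZT8 replicate A, without ZT16 replicate C and without ZT20 replicate B (highest adjusted p 0.0704 without ZT8 replicate A), and with the series as a term (0.0896). In Ctrl the amplitude was 0.48 ± 0.16 (adjusted p = 0.32), and the difference was not called (adjusted p = 0.999). Dnajb4, a co-chaperone of HSP70, had 0.43 ± 0.073 in mKO (peak ZT19.1, adjusted p = 0.00812) and 0.37 ± 0.058 in Ctrl (peak ZT18.7). Dnajb5 had 0.18 ± 0.036 in mKO (peak ZT18.2, adjusted p = 0.0255). Its call was lost in 7 of 18 fits that left out 1 array (highest adjusted p 0.0714, without ZT16 replicate B). Snord14e, a small nucleolar RNA gene that RefSeq places inside Hspa8, had 0.74 ± 0.12 in mKO (peak ZT16.5 ± 0.639 h, adjusted p = 0.00731). In Ctrl Snord14e had 0.16 ± 0.15 (adjusted p = 0.882), and its cosine difference was not called. Hspa8 itself was not called, with an amplitude of 0.145 in mKO (adjusted p = 0.33 in mKO and 0.184 in Ctrl).

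Abra (STARS) encodes an actin-binding protein of the sarcomere that signals to serum response factor. Its signals in mKO TA were 11.61, 11.84 and 11.13 at ZT0, 11.47, 10.96 and 11.20 at ZT4, 11.07, 10.88 and 11.17 at ZT8, 10.92, 11.20 and 10.82 at ZT12, 12.45, 12.26 and 12.16 at ZT16, and 12.30, 12.31 and 12.04 at ZT20. Ctrl TA gave 11.62, 11.53 and 11.63 at ZT0, 10.97, 11.25 and 11.44 at ZT4, 11.20, 11.44 and 11.39 at ZT8, 11.04, 10.99 and 11.15 at ZT12, 12.25, 11.74 and 12.26 at ZT16, and 11.38, 11.70 and 11.67 at ZT20. The mKO arrays of ZT16 and ZT20 stood above those of all other times, while in Ctrl the high values were those of ZT16 alone; mKO lay above Ctrl at ZT20 and below it at ZT8. The amplitude was 0.68 ± 0.095 in mKO (peak ZT19.1 ± 0.532 h, adjusted p = 0.00141) and 0.33 ± 0.093 in Ctrl (adjusted p = 0.184), and the difference was not called (adjusted p = 0.999). Xirp1, an actin-binding protein of the muscle-tendon junction and of repair, had 0.55 ± 0.12 in mKO (peak ZT19.5, adjusted p = 0.0496, lost in 15 of 18 fits that left out 1 array; 0.0911 with the series as a term). Of 19 genes of the serum response factor and cytoskeleton list 1 was called in mKO, Tagln (0.15 ± 0.032, adjusted p = 0.0448), and 1 in Ctrl. Calls over all genes made up 1.31% in mKO and 1.97% in Ctrl.

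Of 26 immediate early genes 5 were called in mKO and 3 in Ctrl, beside 1.31% and 1.97% of all genes. None of the 26 was called in both, while over all genes 48.1% of the mKO calls were also called in Ctrl. In Ctrl the adjusted p of Btg2 was 0.0572 and that of Klf6 0.0622, close to the threshold. Those named here were Zfp36, an RNA-decay factor (0.42 ± 0.073, peak ZT14.8, adjusted p = 0.0102), Klf6, a transcription factor (0.24 ± 0.047, peak ZT15.8, adjusted p = 0.0239), Btg2, an antiproliferative factor (0.24 ± 0.05, peak ZT16.2, adjusted p = 0.0382), and Dusp1, a phosphatase of MAP kinases (0.35 ± 0.071, peak ZT15.9, adjusted p = 0.0383). All 4 had their fitted peak between ZT14.8 and ZT16.2. The fifth call was that of Klf4 (0.25 ± 0.052, peak ZT18.4, adjusted p = 0.0399), named after its values were seen. The call of Zfp36 was kept in each fit that left out 1 array, and those of Klf6, Btg2 and Dusp1 were lost in 4, 11 and 11 of 18 such fits. With the series as a term the adjusted p of Dusp1 was 0.0546. None of the 26 genes had a called difference between genotypes.

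Of 26 genes that answer to glucocorticoids, the hormones that peak near the onset of activity, 11 were called in mKO and 12 in Ctrl. Of these, 8 were called in both, and the shares over all genes were 1.31% in mKO and 1.97% in Ctrl. The list shares Per1, Fbxo32, Trim63, Pik3r1 and Dusp1 with groups described above. Its median amplitude was 0.29 in mKO and 0.27 in Ctrl, against 0.065 over all genes in each. Errfi1, an inhibitor of EGF receptor signalling, had 0.32 ± 0.048 in mKO (peak ZT17.7 ± 0.584 h, adjusted p = 0.00335) and 0.21 ± 0.049 in Ctrl (peak ZT17.2, adjusted p = 0.0706). Per1 was the 1 gene of this list with a called cosine difference.

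Myod1, the muscle-determining transcription factor, had signals in mKO TA of 9.29, 9.16 and 9.56 at ZT0, 8.59, 8.68 and 8.87 at ZT4, 9.08, 9.14 and 8.30 at ZT8, 9.73, 9.38 and 9.52 at ZT12, 9.99, 9.86 and 9.99 at ZT16, and 9.70, 9.58 and 9.28 at ZT20. In Ctrl TA they were 9.02, 9.35 and 9.23 at ZT0, 8.69, 8.73 and 8.57 at ZT4, 8.55, 8.48 and 8.44 at ZT8, 8.66, 8.43 and 8.71 at ZT12, 9.27, 9.44 and 9.60 at ZT16, and 9.45, 9.33 and 9.54 at ZT20. The mKO arrays lay above the Ctrl arrays at ZT12 and ZT16 and overlapped with them otherwise. Its amplitude was 0.57 ± 0.078 in mKO (peak ZT16.9 ± 0.517 h, adjusted p = 0.00122) and 0.55 ± 0.05 in Ctrl (peak ZT19.7), with a peak difference of -2.74 ± 0.625 h; the cosine difference was not called (adjusted p = 0.362). B3galt2, a galactosyltransferase, and Ppp1r27, a regulatory protein of protein phosphatase 1, also had earlier fitted peaks in mKO than in Ctrl: ZT22.2 in mKO and ZT1.01 in Ctrl, and ZT19 in mKO and ZT22.4 in Ctrl, with adjusted p of the difference of 0.848 and 0.546.

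Other genes among the 25 of largest amplitude in mKO peaked at night. Angptl7, a secreted angiopoietin-like protein, had time means of 7.40 at ZT0, 7.17 at ZT4, 7.14 at ZT8, 8.79 at ZT12, 8.998 at ZT16 and 8.25 at ZT20 in mKO. The means in Ctrl were 7.69 at ZT0, 7.67 at ZT4, 8.18 at ZT8, 8.77 at ZT12, 9.42 at ZT16 and 8.61 at ZT20. Its amplitude was 1.03 ± 0.14 in mKO, a 4.16-fold range (peak ZT15.7 ± 0.515 h, adjusted p = 0.00122), and 0.85 ± 0.14 in Ctrl (peak ZT15.2). Otud1, a deubiquitinase, had 0.67 ± 0.092 in mKO (peak ZT18.3, adjusted p = 0.00141) and 0.57 ± 0.11 in Ctrl (peak ZT16.6). Slc25a25, a mitochondrial ATP-Mg and phosphate carrier, had 0.66 ± 0.14 in mKO (peak ZT15.3, adjusted p = 0.0386, lost in 13 of 18 fits that left out 1 array; 0.0562 with the series as a term). Tcim, Adh1 and Arrdc2 had amplitudes of 0.62, 0.57 and 0.57 in mKO and peaks at ZT15.4, ZT13.7 and ZT12.9. Adh1 encodes an alcohol dehydrogenase that also oxidises retinol, and Arrdc2 an arrestin-like protein. The call of Arrdc2 was lost without ZT12 replicate A, without ZT12 replicate B (highest adjusted p 0.062 without ZT12 replicate B) and with the series as a term (0.165). Ifi205 had 0.54 ± 0.10 (peak ZT13.4, adjusted p = 0.0239, lost in 7 of 18 fits that left out 1 array; 0.119 with the series as a term), and none of the 17 measured genes on the interferon list was called by the cosine in either genotype. The smallest adjusted p there in mKO was that of Igtp (0.299), and a list of 17 can lack calls where 1.31% of all genes are called.

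Mir181b-2 was among the genes with a higher amplitude in mKO than in Ctrl. Its mature products are shown with their seeds (bases 2 to 8) in capitals, from RefSeq at chr2:38853845-38853868, plus strand and chr2:38853883-38853904, plus strand.
mmu-miR-181b-5p: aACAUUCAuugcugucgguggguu
mmu-miR-181b-2-3p: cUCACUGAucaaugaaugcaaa
The array signal stands for the transcript that the probe set matches, and the sources used here do not say whether mature miRNA contributes. Its time means in mKO were 7.48 at ZT0, 7.23 at ZT4, 7.22 at ZT8, 6.87 at ZT12, 6.93 at ZT16 and 7.28 at ZT20. Ctrl means were 7.40 at ZT0, 7.37 at ZT4, 7.81 at ZT8, 7.59 at ZT12, 7.38 at ZT16 and 7.44 at ZT20. The amplitude was 0.27 ± 0.049 in mKO (peak ZT0.991 ± 0.681 h, adjusted p = 0.0129; 0.0741 with the series as a term) and 0.17 ± 0.072 in Ctrl (adjusted p = 0.586), and the difference was not called (adjusted p = 0.216). Gab1 (a docking protein) and Lrrc29 were likewise among the called genes of higher amplitude in mKO with the smallest p of the difference, with amplitudes of 0.23 and 0.16 in mKO and 0.13 and 0.085 in Ctrl, and adjusted p of the difference of 0.206 and 0.618. Their calls in mKO were lost in 5 and 3 of 18 fits that left out 1 array and with the series as a term (0.0517 and 0.0654). Zfp462 and Zhx2, which encode zinc finger proteins, stood on the opposite side, with amplitudes of 0.19 and 0.19 in mKO and 0.39 and 0.34 in Ctrl, without a called difference (adjusted p = 0.192 and 0.546). Their own calls in mKO were lost in 4 and 14 of 18 such fits and with the series as a term (0.255 and 0.336).

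Time as a factor called 16 genes of mKO TA that the cosine did not, and 135 genes were called by both tests. Of the 16, 10 were highest at ZT16 and 8 were lowest at ZT12. Rassf9, which had the smallest p of them, showed a trough at a single time: its signals in mKO TA were 6.59, 6.98 and 6.86 at ZT0, 7.09, 7.21 and 7.30 at ZT4, 6.76, 6.89 and 6.84 at ZT8, 6.24, 6.13 and 6.37 at ZT12, 6.80, 6.90 and 7.04 at ZT16, and 7.11, 7.26 and 6.97 at ZT20. In Ctrl TA they were 6.76, 6.87 and 6.82 at ZT0, 6.87, 6.78 and 7.02 at ZT4, 7.12, 6.64 and 5.96 at ZT8, 6.47, 6.46 and 6.32 at ZT12, 6.86, 6.46 and 7.55 at ZT16, and 6.87, 7.06 and 7.17 at ZT20. In mKO the arrays of ZT12 lay below those of all other times (adjusted p of time as a factor = 0.00247, of the cosine = 0.247). Fnip1, a partner of folliculin in AMPK signalling, had time means of 9.35 at ZT0, 9.47 at ZT4, 9.36 at ZT8, 9.17 at ZT12, 9.75 at ZT16 and 9.61 at ZT20 in mKO, with the step from ZT12 to ZT16 upwards. That step falls between arrays of different identification series. Its means in Ctrl were 9.87 at ZT0, 9.90 at ZT4, 10.23 at ZT8, 10.04 at ZT12, 10.10 at ZT16 and 9.66 at ZT20, and its difference with time as a factor was called (adjusted p = 0.0033). The adjusted p of Fnip1 for time in mKO was 0.0215, and the call was lost in 3 of 18 fits that left out 1 array. That adjusted p reached 0.0779 without ZT16 replicate B and 0.164 with the series as a term.

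Pnpla3, a lipase-like protein of lipid droplets, had signals in mKO TA of 8.28, 8.23 and 8.28 at ZT0, 7.85, 7.88 and 7.91 at ZT4, 7.87, 8.01 and 7.91 at ZT8, 8.36, 8.22 and 8.57 at ZT12, 8.24, 8.04 and 8.16 at ZT16, and 8.18, 8.07 and 8.10 at ZT20. The Ctrl arrays gave 8.05, 8.28 and 8.03 at ZT0, 7.47, 7.47 and 7.42 at ZT4, 6.90, 7.005 and 6.91 at ZT8, 7.18, 6.94 and 7.26 at ZT12, 7.57, 7.49 and 7.58 at ZT16, and 8.04, 7.97 and 7.89 at ZT20. The mKO arrays lay above Ctrl from ZT4 to ZT20. In mKO time as a factor was called (adjusted p = 0.0323, lost in 13 of 18 fits that left out 1 array, and 0.13 with the series as a term) and the cosine was not (0.14 ± 0.056, adjusted p = 0.482). In Ctrl the amplitude was 0.58 ± 0.041 (adjusted p = 1.74e-07), and the cosine difference was called (adjusted p = 9.61e-05). Chd6, Zcchc2, Id3, Klf10, Acvr2a and S100a11 were also called by time as a factor alone, with adjusted p for time in mKO between 0.0138 and 0.0375, and each lost the call in 2 to 17 of the 18 fits that left out 1 array. With the series as a term Chd6, Id3, Acvr2a and S100a11 were not called (adjusted p = 0.0713, 0.0858, 0.243 and 0.109). Klf10 and Id3 encode transcription regulators that answer to TGF-beta and BMP, and Acvr2a encodes a receptor for activin and myostatin.

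The markers of muscle fibres themselves had no called rhythm in mKO TA. None of 9 genes of skeletal muscle fibres, 18 of fast fibres or 14 of slow fibres was called in mKO or in Ctrl, and the fibre marker list averaged 13.4 to 13.6 across the mKO arrays and 13.5 to 13.6 across the Ctrl arrays. The fast fibre list averaged 13.0 to 13.2 in mKO and 13.1 to 13.2 in Ctrl, and the slow fibre list 8.22 to 8.80 in mKO and 7.94 to 8.66 in Ctrl. In bulk muscle, fewer cells of a type and less RNA per cell cannot be told apart. Neither the 26 measured members of the respiratory chain and citrate cycle nor the 22 of the unfolded protein response held a call in either genotype. The smallest adjusted p of these lists in mKO were those of Ndufb8 (0.313) and Eif2ak3 (0.282). Over all genes 1.31% were called in mKO and 1.97% in Ctrl. At those shares lists of this size can lack calls, so their absence does not set the fibre, respiratory chain or unfolded protein lists apart.

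A few markers of cells in which Bmal1 was not targeted were called. Of 12 endothelial markers 2 were called in mKO, beside 1.31% of all genes: Kdr, the receptor for VEGF, and Cldn5, a tight junction protein. Kdr had 0.31 ± 0.054 in mKO (peak ZT0.166 ± 0.665 h, adjusted p = 0.0106; 0.0981 with the series as a term) and 0.34 ± 0.068 in Ctrl (peak ZT1.06, adjusted p = 0.0236). Cldn5 had 0.42 ± 0.066 in mKO (peak ZT2.94 ± 0.596 h, adjusted p = 0.00412) and 0.36 ± 0.086 in Ctrl (peak ZT3.08, adjusted p = 0.0843). Another endothelial marker, Eng, was called by time as a factor in mKO and was highest at ZT16 (adjusted p = 0.0278). The call of Eng was lost in 8 of 18 fits that left out 1 array (highest adjusted p 0.192, without ZT16 replicate B). With the series as a term the adjusted p of Eng was 0.0762. The 12 markers together averaged 8.80 to 9.10 across the mKO arrays and 8.83 to 9.24 across the Ctrl arrays.

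Of 9 markers of smooth muscle and pericytes 2 were called in mKO, Acta2 (0.26 ± 0.052, peak ZT19.7, adjusted p = 0.0332) and Tagln, and none in Ctrl; the calls of Acta2 and Tagln were lost in 8 and 15 of 18 fits that left out 1 array, and that of Acta2 with the series as a term (0.129). Of 8 satellite cell markers Myod1 alone was called, in mKO and in Ctrl. No marker was called in mKO or Ctrl among 11 of fibroblasts and tendon, 10 of macrophages, 11 of lymphocytes and granulocytes, 7 of adipocytes, 6 of Schwann cells and nerve, 4 of erythroid cells or 15 of liver. With 1.31% of all genes called in mKO, lists this small can lack calls. The macrophage list had the widest range of these in mKO arrays next to the liver and erythroid lists, 6.50 to 7.31, against 6.71 to 7.61 in Ctrl. The part of any of these cells in the rhythms above was not tested.

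The remaining lists held at most 1 call each in mKO, beside 1.31% of all genes called in mKO and 1.97% in Ctrl. Of 29 genes of sterol and fatty acid synthesis 1 was called in mKO, the desaturase gene Fads2 (0.22 ± 0.043, adjusted p = 0.0296), and 5 in Ctrl. The call of Fads2 was lost in 8 of 18 fits that left out 1 array (highest adjusted p 0.0737, without ZT12 replicate B). With the series as a term its adjusted p was 0.136. Of 24 genes of the cell cycle and p53 1 was called in mKO, Btg2, and 3 in Ctrl. Of 19 genes of denervation and the neuromuscular junction none was called in mKO and 2 in Ctrl, the smallest adjusted p in mKO being that of Dok7 (0.0653). Of 6 cold-inducible RNA-binding genes none was called in mKO and 1 in Ctrl: Cirbp had 0.21 ± 0.047 in mKO (peak ZT4.03, adjusted p = 0.0608) and 0.16 ± 0.035 in Ctrl (peak ZT8.24, adjusted p = 0.0366).

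Soleus of the same mKO animals held more called genes. The cosine called 1007 genes in SOL of mKO, 4.98% of those tested, against 266 in TA, and 171 were called in both, 64.3% of the TA calls and 17.0% of the SOL calls. A cosine fitted to the difference of TA and SOL within each of the 18 mKO animals was called for 39 genes (0.193%), 10 of them also called in TA. The identification series was not tried as a term in SOL or in this difference, though the animals are the same. Without both muscles of 1 animal that count was 23 for ZT4 replicate A, 21 for ZT4 replicate B, 23 for ZT16 replicate B, 25 for ZT16 replicate C and 22 for ZT20 replicate B.

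Nr1d1 cycled in both mKO muscles with the lower amplitude in TA, 0.75 against 1.40 in SOL, and the rhythm of the difference was called (amplitude 0.67, adjusted p = 0.00296). Pdk4 went the other way, with 1.01 in TA and 0.46 in SOL (adjusted p of the difference = 0.00296). Rnf122, a ubiquitin ligase of the RING type, was not called in TA of mKO (adjusted p = 0.131), with time means of 8.70 at ZT0, 8.44 at ZT4, 8.56 at ZT8, 8.66 at ZT12, 8.71 at ZT16 and 8.74 at ZT20. In SOL of mKO its means were 8.19 at ZT0, 8.26 at ZT4, 8.45 at ZT8, 8.28 at ZT12, 7.76 at ZT16 and 7.57 at ZT20, with an amplitude of 0.41 (adjusted p of the difference = 0.000218). Fzd9, a Wnt receptor, had 0.15 in TA and 0.62 in SOL, where its peak was at ZT0.863 (adjusted p of the difference = 0.000218). Mamstr, a coactivator of MEF2, peaked at ZT16.7 in TA (0.37 ± 0.075, adjusted p = 0.0336, lost in 8 of 18 fits that left out 1 array; 0.0872 with the series as a term) and at ZT10.7 in SOL (0.52), and the difference was called (adjusted p = 0.00296). In the 7 BM2 and BM2* arrays alone the fitted peak of Mamstr in TA was at ZT23.9, without a call (adjusted p = 0.68), so its time of peak in TA is uncertain.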

How the data were processed

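The deposited table holds log2 values for 21225 probe sets on 72 arrays. The authors derived the log2 values by RMA, which summarises probes and scales arrays to a common distribution, per the submitters' processing notes. The sources used here give no version. A symbol was found for 20239 probe sets, and 986 stayed unnamed and untested. Where a symbol had several probe sets, the one of highest mean over all arrays was used.

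Models were fitted by lmFit and eBayes of limma 3.58.1 (R 4.3.3), and other steps used Python 3.11.15. The tests were the moderated F of a 24 h cosine and sine (2 terms), of time as a factor (5 terms), of either one's difference between genotypes, and of a cosine in the difference of TA and SOL within each animal. P-values were adjusted by Benjamini-Hochberg over all 20239 genes, with a threshold of 0.05, and the fits were tested on simulated data. The number of arrays limits the precision. Standard errors of amplitude and peak follow from the fitted terms.

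The genes named are every measured gene of both clock lists, the 25 of largest amplitude among the mKO calls, the 10 of smallest p by time as a factor alone, the 10 of smallest p of the genotype difference on each side among genes called in mKO, the 5 of smallest p between muscles, and up to 4 called members of each other list (or, with none called, its lowest p). Model names such as Gm numbers enter the counts and are left unnamed. Other genes appear where their difference was called. The members and the lists (22 pathway and 11 marker lists) were chosen with earlier results of these data known. Alternatives were a trended prior, a level filter, centring, array weights, replicate letters as a block, identification series, single series, leaving out ZT20 or each array, a shared spread, added 12 h terms and a stricter threshold.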

Additional observations from a re-analysis of the deposited data

Results flagged for a closer look

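The 24 h cosine differed between mKO and Ctrl TA for 21 genes by limma's test of the difference itself. The amplitude in mKO minus that in Ctrl was -1.12 for Ciart, -0.76 for Arntl, -0.52 for Slc16a9, -0.51 for Ypel2, -0.50 for Per1, -0.46 for Mid1ip1, -0.44 for Pnpla3, -0.43 for Wsb1, -0.42 for Nr1d1 and -0.35 for Pim1. It was -0.34 for Coq10b, -0.34 for Cry2, -0.32 for Slc38a4, -0.30 for Auts2, -0.29 for Asb2, -0.28 for Synj2, -0.26 for Sh3bp5, -0.25 for Rnf122 and -0.23 for Stk35. For Crim1 (-0.086) and Ddit4l (-0.088) the amplitudes were close and the fitted peaks lay apart, at ZT3.47 in mKO and ZT10.7 in Ctrl and at ZT7.27 in mKO and ZT21.2 in Ctrl. The call of the difference was lost in 15 of 36 fits without 1 array for Ddit4l, in 14 for Stk35, in 7 each for Sh3bp5 and Wsb1 and in 2 for Synj2, those without Ctrl ZT8 replicate B or C.

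A rhythm in the difference of TA and SOL within mKO animals was called for 11 of the named genes. Its amplitude was 0.77 for Fzd9, 0.76 for Otud1, 0.67 for Nr1d1, 0.64 for Mamstr, 0.56 for Pdk4, 0.54 for Rnf122, 0.51 for Mir181b-2, 0.48 for Bhlhe41, 0.43 for Myod1, 0.42 for Arntl and 0.29 for Tef. The call was lost in 14 of 18 fits without 1 animal for Tef, in 5 for Mir181b-2, in 4 for Myod1 and in 3 for Otud1.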

How the results depend on the processing

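Of the 73 named genes called in mKO TA, 43 kept the call in each fit that left out 1 array. In each of the other settings tried on single genes 13 kept it, and the stricter threshold was not among these settings. The cosine count of 266 in mKO was 110 at an adjusted p of 0.01, 461 among genes above the median level, 103 in BM3 arrays, 99 in BM2 and BM2* arrays, 169 without ZT20 and 166 with 12 h terms added. The time factor count of 151 in mKO was 245 among genes above the median level, 306 with array weights, 93 with the identification series as a term, 44 in BM3 arrays and 99 in BM2 and BM2* arrays. With the series as a term, the Ctrl cosine count of 398 was 133 and the Ctrl time factor count of 206 was 65, which was 601 with array weights. The time factor difference count of 18 was 29 among genes above the median level, 42 with array weights and 10 with the series as a term. The count of 39 between TA and SOL was 124 among genes above the median level and 72 with array weights. The filter tests fewer genes, and single series and the fit without ZT20 hold fewer arrays; the cause of the other changes was not tested. Leaving out 1 array gave 170 to 302 cosine and 74 to 170 time factor calls in mKO, 299 to 427 and 144 to 244 in Ctrl, 18 to 26 cosine and 12 to 18 time factor differences, 703 to 1253 calls in SOL of mKO and 21 to 43 between TA and SOL. Among the named genes that the cosine called in mKO, Mamstr alone had its peak turned by over 6 h. In BM2 and BM2* arrays its amplitude was 0.28 with a peak at ZT23.9 (adjusted p = 0.68).

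The replicate letters are shared by mKO and Ctrl at each time. Deviations of same-letter arrays from their group means correlated between -0.137 and 0.318 over 18 pairs, with a median of 0.158, and 12 pairs exceeded 0.1. Of the 18 mKO arrays, 11 correlated best with their own letter among arrays of other times. Same-letter mKO arrays of other times had a median correlation of 0.0431. Pairs of different letters between the genotypes were not compared. The arrays of a letter may share some deviation, which these values do not settle and the main tests left out. What the letters stand for was not tested. With the letter as a replicate block the counts were 246 and 134 in mKO, 420 and 206 in Ctrl, 22 and 17 for the differences, 970 in SOL and 51 between TA and SOL, and 64 of the 73 named genes were still called.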
